A study of Homo sapiens with 24 samples.

Results

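The mRNAs of 10 BCL2 family genes (BCL2L1, MCL1, BCL2L11, BAX, BAK1, BBC3, PMAIP1, BID, BAD and BIK) were followed across all libraries of an RNA-seq series in HepG2, a human liver cancer cell line. They were taken by symbol from the 26475 gene symbols of the count files, and all 10 symbols were found. The series held 24 libraries in 8 groups of 3. Cells received the solvent DMSO, the BET bromodomain inhibitor ABBV-075 at 50 nM, the BET inhibitor ABBV-744 at 50 nM or 500 nM, interferon gamma (IFNg), or IFNg together with one of these 3 inhibitor treatments. As worded, the study's methods gave 12 h for ABBV-075 and 24 h for DMSO, so compound and duration cannot be told apart in that comparison. For the ABBV-744 and IFNg groups no time, and for IFNg no dose, was given in the sources used here. Whether comparisons with these groups also differ in duration is therefore unknown. All groups were of 1 cell line, and nothing in the labels said that replicates came from separate cultures, so p-values measure only the spread between these libraries.

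BCL2 family proteins control whether the outer mitochondrial membrane is opened during apoptosis. BCL2L1 (whose main product is BCL-XL) and MCL1 hold cells alive by binding their pro-apoptotic relatives. BAX and BAK1 are the effectors that form pores in the membrane, and the BH3-only proteins BCL2L11 (BIM), BBC3 (PUMA), PMAIP1 (NOXA), BID, BAD and BIK either activate the effectors or occupy the survival proteins. BET inhibitors displace BET proteins from acetylated chromatin, and ABBV-744 is known to prefer the second bromodomain of these proteins, while ABBV-075 binds both. IFNg is known to induce the transcription factor gene IRF1.

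In the GENCODE annotation of GRCh38 all 10 are protein-coding. BCL2L1 lies at chr20:31664452-31723989 on the minus strand and MCL1 at chr1:150560895-150579738 on the minus strand. BAX lies at chr19:48954815-48961798 on the plus strand and BAK1 at chr6:33572547-33580293 on the minus strand. The BH3-only genes are at chr2:111119378-111168444 (BCL2L11, plus), chr19:47220822-47232766 (BBC3, minus), chr18:59899996-59904305 (PMAIP1, plus), chr22:17734138-17774770 (BID, minus), chr11:64269830-64284704 (BAD, minus) and chr22:43110750-43129712 (BIK, plus).

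Between 2978982 and 4304103 reads per library were counted on the gene strand, with a median of 3462418.5. HEXIM1, a gene that BET inhibitors are known to raise, was higher with ABBV-075 than with DMSO by 1.41 ± 0.12 (SE) on the log2 scale and with 500 nM ABBV-744 by 0.74 ± 0.11. At 50 nM ABBV-744 its difference was 0.29 ± 0.12 without IFNg (edgeR adjusted p = 0.082) and 0.09 ± 0.13 with IFNg (edgeR adjusted p = 0.56), so the response of this gene to the low dose was not detected. IRF1 was higher with IFNg than with DMSO by 4.26 ± 0.12. The summed level of 8 hepatocyte markers was 19476 to 26877 CPM (reads scaled to the library's TMM-adjusted total) over the 24 libraries, 4 of 4 fibroblast markers and the leukocyte markers PTPRC and CD3E were at 3 counts or fewer in every library, and the endothelial markers summed to at most 2.15 CPM. The 4 leukocyte markers summed to 1128 to 1902 CPM, which with PTPRC and CD3E at that floor came from LYZ and CD74, and their part in the results was not tested. In bulk RNA, fewer cells of a type and less RNA per cell cannot be told apart. Differences between groups also ran with the GC content of genes. Across genes, which are not independent replicates, the correlation of log2 fold change with GC content reached -0.73 in the ABBV-744 50 nM by IFNg interaction, where the median was 1.07 in the fifth of genes with the lowest GC content and -0.60 in the fifth with the highest. Values after a GC correction are therefore given beside each call of the BCL2 family members that it ended or made. Genes of the other lists are given without it.

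In DMSO-treated cells the 3 members with the highest mRNA level were the survival genes BCL2L1 and MCL1 and the effector gene BAX. Levels were divided by the joined length of all annotated exons of a gene (4197 bases for BCL2L1, 2587 for BAX and 6222 for MCL1). Which transcripts were expressed was not tested, so the order below depends on these lengths. Per kilobase of exon, BCL2L1 had the highest level, 32.6 ± 1.54 CPM per kb (SD, n = 3). BAX followed at 26.9 ± 2.89 and MCL1 at 23.2 ± 1.66 CPM per kb, and the mean ± SD ranges of these 2 neighbours overlapped. BAK1 had 10.8 ± 0.862, BID 7.6 ± 0.403 and BAD 6.26 ± 0.907 CPM per kb, and the mean ± SD ranges of BID and BAD nearly met. BBC3 and BCL2L11 were lower, at 1.77 ± 0.239 and 1.75 ± 0.256 CPM per kb, and their mean ± SD ranges overlapped. BIK at 0.986 ± 0.893 and PMAIP1 at 0.48 ± 0.227 CPM per kb rested on 7 reads or fewer in every DMSO library.

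**Figure D1:**
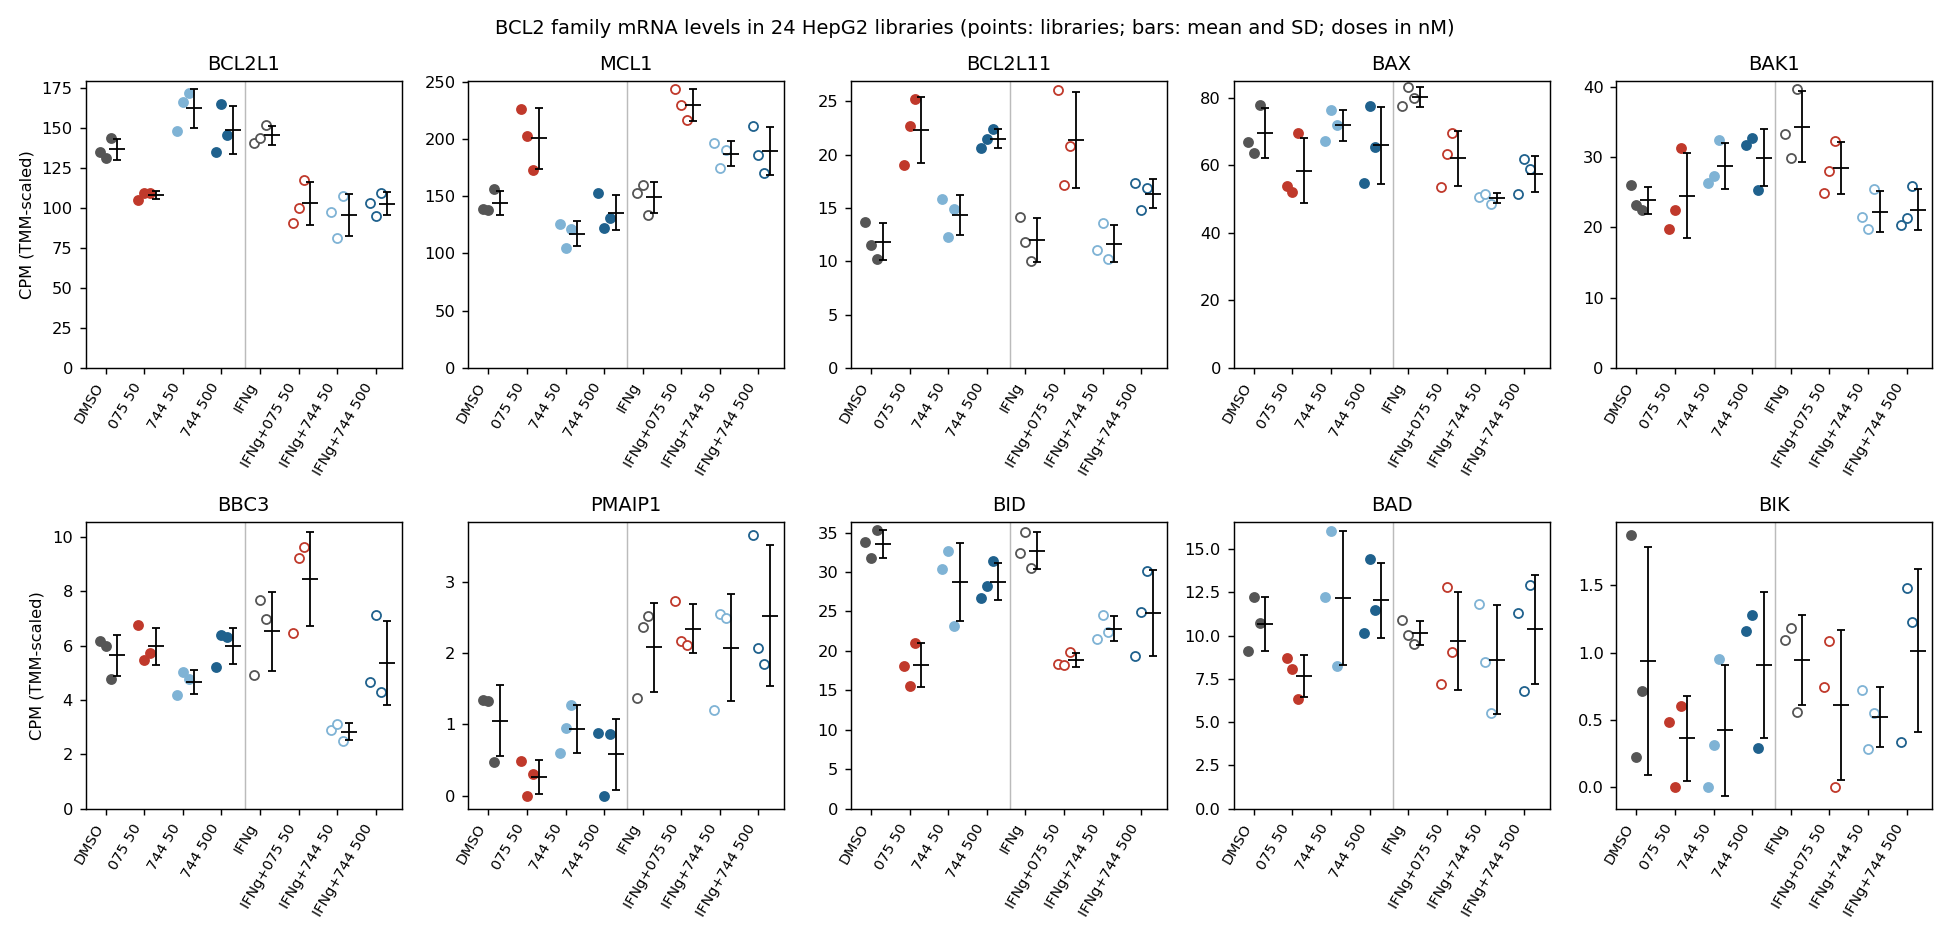
TMM-scaled CPM of the 10 genes in the 24 libraries, 1 panel a gene, with filled points for groups without IFNg, open points for groups with IFNg, and bars for the mean and SD of 3 libraries. MCL1 is highest with ABBV-075 (with or without IFNg), BID is lowest there, and PMAIP1 lies higher in the groups with IFNg.

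Of the 10 genes, 8 passed the filter on low counts in every comparison and 2, PMAIP1 and BIK, did not. With ABBV-075 against DMSO, 4 of the 8 were called at an edgeR adjusted p of at most 0.05 (2 higher, 2 lower), where 39.3% of all genes tested were called (19.8% higher, 19.6% lower). With ABBV-744 against DMSO the count was 0 at 50 nM (background 18.9%) and 1, higher, at 500 nM (background 15.3%, 7.48% higher and 7.8% lower). IFNg against DMSO called 1, higher (background 3.46%, 2.76% higher and 0.695% lower). Against IFNg alone, IFNg with ABBV-075 called 5, of which 2 were higher and 3 lower (background 56.6%, 28.2% higher and 28.4% lower). With 50 nM ABBV-744 and IFNg the count was 6, 1 higher and 5 lower (background 51.7%, 27.4% and 24.3%), and with 500 nM ABBV-744 it was 5, 1 higher and 4 lower (background 45.7%, 22.9% and 22.8%). Each count is read against its background share, and the family was not tested against other genes. The share of all genes whose groups did not overlap is not given here, so absence of overlap only describes the libraries named. The comparisons of one inhibitor series share their control libraries. Only 1 gene in 1 comparison, BBC3 with ABBV-075 against ABBV-744 in the presence of IFNg, also passed the study's fold threshold of 1.5 on the log2 scale. Over all genes, the share past both thresholds was 4.28% for ABBV-075, 0.279% for 50 nM and 0.342% for 500 nM ABBV-744 and 0.847% for IFNg, each against DMSO. It was 6.17%, 2.3% and 2.11% for the 3 inhibitor treatments with IFNg against IFNg alone, 0% and 0.00907% between the doses of ABBV-744 without and with IFNg, 3.83% and 1.49% between the compounds, and 0.0173%, 6.44% and 3.07% in the interactions of ABBV-075, 50 nM and 500 nM ABBV-744.

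**Figure D2:**
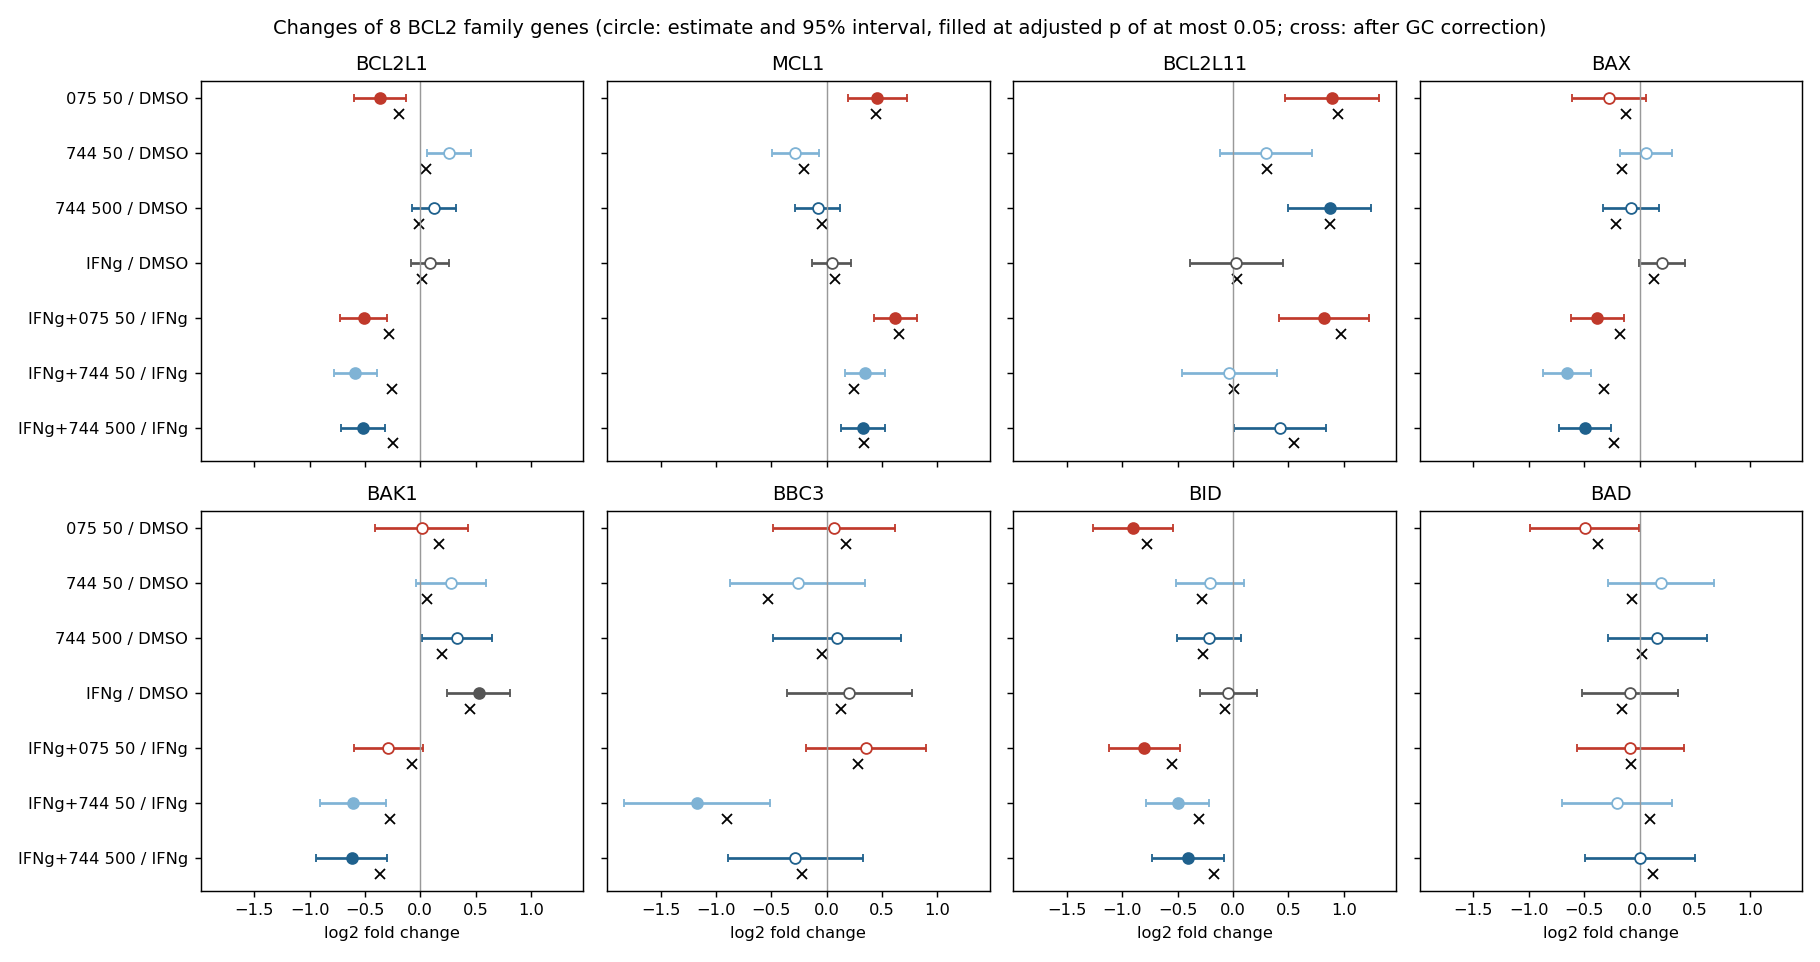
Log2 fold changes of 8 genes (x axis) in 7 comparisons (y axis), with circles and 95% intervals for the edgeR estimate, filled where the adjusted p is at most 0.05, and crosses for the estimate after GC correction. BCL2L11 rises by about the same amount with ABBV-075 in both settings, and the crosses of BCL2L1, BAX and BAK1 lie nearer to 0 than the circles in the groups with IFNg and an inhibitor.

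The mRNA of MCL1, which encodes a short-lived survival protein, was higher with ABBV-075. Only mRNA was counted, and protein levels are not known here. Its level was 139, 138 and 156 CPM in the DMSO libraries and 227, 203 and 173 CPM with ABBV-075, and the groups did not overlap. The log2 fold change was 0.46 ± 0.12 (SE; edgeR adjusted p = 0.011). It was 0.45 after GC correction (edgeR adjusted p = 0.0013). The call was lost without DMSO replicate 1 (0.43, edgeR adjusted p = 0.060) and without DMSO replicate 2 (0.42, 0.064). The 50 nM ABBV-744 libraries held 126, 105 and 121 CPM, all 3 below DMSO, a log2 difference of -0.28 ± 0.10 that did not pass (edgeR adjusted p = 0.051) but passed with RLE normalization, library size scaling or no filter, and without ABBV-744 50 nM replicate 1 (-0.33, edgeR adjusted p = 0.032). At 500 nM the libraries held 153, 123 and 131 CPM and overlapped DMSO (-0.08 ± 0.10, 95% interval -0.28 to 0.12).

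In cells given IFNg, MCL1 was higher in all 3 groups with an inhibitor than with IFNg alone. IFNg alone gave 153, 160.0 and 134 CPM, which overlapped DMSO. With IFNg the ABBV-075 libraries held 244, 229.8 and 216 CPM, those of 50 nM ABBV-744 196, 175 and 190.1 CPM and those of 500 nM ABBV-744 212, 187 and 171 CPM, and no library of these 3 groups overlapped IFNg alone. The log2 fold changes were 0.62 ± 0.10 (edgeR adjusted p = 7.7e-07), 0.35 ± 0.09 (0.0013) and 0.33 ± 0.10 (0.007). After GC correction they were 0.65, 0.25 and 0.33, all still called. For 500 nM the call was lost without IFNg replicate 3 (0.25, edgeR adjusted p = 0.059).

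BCL2L1 moved the other way. It stood at 135, 131 and 144 CPM with DMSO and at 105, 109.7 and 109 CPM with ABBV-075, without overlap. The log2 fold change of -0.36 ± 0.11 (edgeR adjusted p = 0.020) was -0.19 after GC correction (edgeR adjusted p = 0.11), so the call did not survive that step. It was also lost with both strands counted (-0.30, edgeR adjusted p = 0.10). The same held without ABBV-075 replicate 2 or any 1 of the 3 DMSO libraries (lowest and highest edgeR adjusted p 0.058 and 0.11, log2 -0.39 and -0.32). ABBV-744 at 50 nM gave 148, 167 and 172 CPM, all above DMSO, but the difference of 0.26 ± 0.10 did not pass (edgeR adjusted p = 0.064). Without ABBV-744 50 nM replicate 1 it passed (0.33, edgeR adjusted p = 0.019), as it did with both strands counted, and after GC correction it was 0.05. At 500 nM the values were 135, 165 and 146 CPM and overlapped DMSO.

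With IFNg present BCL2L1 was lower under each inhibitor. IFNg alone gave 141, 144 and 152 CPM. ABBV-075, 50 nM ABBV-744 and 500 nM ABBV-744 with IFNg gave 91, 100.4 and 118 CPM, 97.6, 81.4 and 107 CPM and 103, 95.2 and 109.8 CPM, each group wholly below IFNg alone. The log2 fold changes of -0.51 ± 0.10, -0.59 ± 0.10 and -0.52 ± 0.10 were called under every alternative tried (edgeR adjusted p = 7.5e-05, 4.8e-06 and 7.0e-05). They shrank to -0.29, -0.25 and -0.25 with GC correction and stayed called.

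The ratio of MCL1 to BCL2L1 reads within a library put both movements on 1 scale. It was not corrected for the lengths of the genes, so it is read only between groups. The ratio was 1.05 ± 0.0297 (SD, n = 3) with DMSO, 0.728 ± 0.112 with 50 nM ABBV-744, 0.923 ± 0.193 with 500 nM ABBV-744 and 1.03 ± 0.127 with IFNg. It was 1.86 ± 0.285 with ABBV-075, and 2.27 ± 0.42, 1.98 ± 0.193 and 1.86 ± 0.264 with IFNg plus ABBV-075, 50 nM and 500 nM ABBV-744. The lowest library of those 4 groups, at 1.55, lay above the highest of the other 4 groups, at 1.13. The ratio was not corrected for GC content either, and the genes differ in it (44.7% for MCL1 and 58.2% for BCL2L1). With 50 nM ABBV-744 and IFNg against IFNg alone, GC correction narrowed the gap between their log2 fold changes from 0.35 and -0.59 to 0.25 and -0.25, and in the 50 nM interaction from 0.60 and -0.88 to 0.46 and -0.30.

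**Figure D3:**
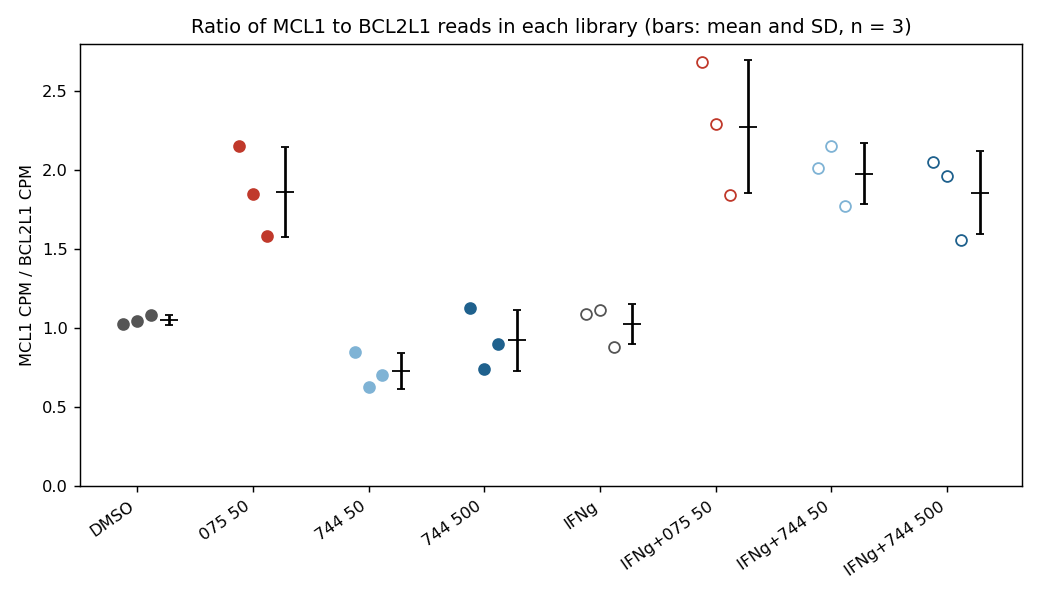
Ratio of MCL1 CPM to BCL2L1 CPM (y axis, no unit) in each of the 24 libraries by group, with the mean and SD of 3 libraries. The groups with ABBV-075, and those with IFNg and ABBV-744, lie between 1.55 and 2.68, and the remaining groups between 0.63 and 1.13. The ratio is not corrected for GC content.

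The effectors BAX and BAK1 were not called under any inhibitor without IFNg. BAX was at 67, 63.7 and 78 CPM with DMSO and 53.8, 52 and 69.5 CPM with ABBV-075, with overlapping libraries and a log2 difference of -0.28 ± 0.15 (edgeR adjusted p = 0.17). Without ABBV-075 replicate 3 it was -0.42 and passed (edgeR adjusted p = 0.0088). With IFNg alone BAX was at 77.5, 83.2 and 79.998 CPM, and it was lower in all 3 combinations: 53.4, 63.4 and 69.6 CPM with ABBV-075, 50.6, 51.4 and 48.6 CPM with 50 nM ABBV-744 and 51.6, 62 and 59 CPM with 500 nM ABBV-744. The groups did not overlap with IFNg alone. Log2 fold changes were -0.38 ± 0.12, -0.65 ± 0.11 and -0.49 ± 0.11 (edgeR adjusted p = 0.0059, 3.6e-06 and 7.2e-04). After GC correction they were -0.17, -0.32 and -0.23, and only the 50 nM ABBV-744 call held (edgeR adjusted p = 0.11, 0.0091 and 0.054). The ABBV-075 call was also lost without replicate 1 of the combined ABBV-075 and IFNg group (-0.26, edgeR adjusted p = 0.062).

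BAK1 was the 1 gene called with IFNg against DMSO. Its libraries held 26, 23.1 and 22.4 CPM with DMSO and 33.3, 29.8 and 39.7 CPM with IFNg, without overlap, and the log2 fold change was 0.53 ± 0.14 (edgeR adjusted p = 0.025; 0.45 after GC correction, 0.032). The call was lost with DESeq2 (0.52, adjusted p = 0.11), with all 24 libraries in the fit, with library size scaling, and without DMSO replicate 2 (0.51, edgeR adjusted p = 0.11), DMSO replicate 3 (0.49, 0.14) or IFNg replicate 3 (0.41, 0.21). In the combinations BAK1 was at 21.5, 19.8 and 25.4 CPM with 50 nM ABBV-744 and 20.3, 21.4 and 25.8 CPM with 500 nM, both wholly below IFNg alone, with log2 fold changes of -0.61 ± 0.15 and -0.62 ± 0.16 (edgeR adjusted p = 7.9e-04 and 0.0017). GC correction gave -0.27 (edgeR adjusted p = 0.13, no longer called) and -0.36 (0.043). With ABBV-075 and IFNg the 24.9, 28 and 32.2 CPM overlapped IFNg alone, a difference of -0.29 ± 0.15 that did not pass (edgeR adjusted p = 0.11), although it did without replicate 3 of the combined group (-0.39, edgeR adjusted p = 0.049).

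Among the BH3-only genes, BCL2L11 rose with ABBV-075 and with the high dose of ABBV-744. The window from 250 bases before to 50 after its RefSeq start (GRCh38.p14, chr2:111120664-111120963, plus strand) is shown because this gene rose under both compounds, with the FOXO motif TGTTTAC and the GC box GGGCGG, searched on both strands, in capitals.
BCL2L11: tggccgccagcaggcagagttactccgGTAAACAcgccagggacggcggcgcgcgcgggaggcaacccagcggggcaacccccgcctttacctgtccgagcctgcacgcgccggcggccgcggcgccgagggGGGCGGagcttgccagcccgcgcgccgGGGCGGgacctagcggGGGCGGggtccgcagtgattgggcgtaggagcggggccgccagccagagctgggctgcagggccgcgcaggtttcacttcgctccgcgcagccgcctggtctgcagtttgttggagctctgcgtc
The window holds 1 FOXO match and 3 GC box matches, and 3.42% of the 35116 RefSeq windows of this length hold at least 1 FOXO match. A GC box stands in 44.95% of windows, and 15.8% hold 3 or more. More motifs were searched than are marked in capitals, and those marked were chosen with their matches known. BCL2L11 was at 13.7, 11.5 and 10.3 CPM with DMSO, 19.1, 22.7 and 25.3 CPM with ABBV-075, 15.8, 12.3 and 14.9 CPM with 50 nM ABBV-744 and 20.6, 21.5 and 22.4 CPM with 500 nM ABBV-744. The ABBV-075 and 500 nM libraries lay wholly above DMSO, and the 50 nM libraries overlapped it. Log2 fold changes were 0.89 ± 0.19 with ABBV-075 and 0.87 ± 0.18 with 500 nM ABBV-744 (edgeR adjusted p = 0.0035 and 0.0013), and both were called under every alternative tried. At 50 nM ABBV-744 the difference was 0.30 ± 0.20, with a 95% interval of -0.12 to 0.71. Between the 2 doses of ABBV-744 it was 0.58 ± 0.19 (edgeR adjusted p = 0.72), in a comparison where only 0.0274% of genes were called and none of the 8 was.

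With IFNg, BCL2L11 was at 14.2, 11.8 and 10.1 CPM, and at 26.1, 17.1 and 20.8 CPM after adding ABBV-075 (0.82 ± 0.20, edgeR adjusted p = 7.0e-04). The 50 nM ABBV-744 libraries held 11.1, 13.6 and 10.2 CPM, overlapping IFNg alone (-0.03 ± 0.21). The 500 nM libraries held 17.3, 14.8 and 16.9 CPM, all above IFNg alone, at 0.42 ± 0.20 (edgeR adjusted p = 0.090). This passed with GC correction (0.55, edgeR adjusted p = 0.027) and without IFNg replicate 1 (0.57, 0.042).

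BID, which links death receptors to mitochondria, fell with ABBV-075. It was at 33.8, 31.7 and 35.3 CPM with DMSO and 18.1, 15.5 and 21 CPM with ABBV-075, without overlap, a log2 fold change of -0.91 ± 0.17 (edgeR adjusted p = 0.0013) that was called under every alternative tried. With IFNg the level was 32.5, 35.1 and 30.5 CPM, and 18.4, 18.2 and 19.9 CPM with ABBV-075, again without overlap (-0.80 ± 0.16, edgeR adjusted p = 4.5e-05). For 50 nM ABBV-744 with IFNg (21.5, 24.6 and 22.4 CPM) the fold change was -0.50 ± 0.14 (edgeR adjusted p = 0.0034) and -0.31 after GC correction (0.069). For 500 nM (19.3, 24.9 and 30.1 CPM) it was -0.41 ± 0.16 (edgeR adjusted p = 0.039) and rested on single libraries: without replicate 1 of that group it was -0.25 (edgeR adjusted p = 0.25), without its replicate 2 -0.40 (0.096), without IFNg replicate 1 -0.41 (0.065) and without IFNg replicate 2 -0.35 (0.12). It was also lost with GC correction (-0.17, edgeR adjusted p = 0.38), DESeq2, RLE normalization and library size scaling.

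The promoter windows of BBC3 and BAX are shown because these genes had the 2 largest log2 falls of the 5 called lower with 50 nM ABBV-744 and IFNg. The windows are chr19:47232618-47232917 (minus strand, BBC3) and chr19:48954625-48954924 (plus strand, BAX) in GRCh38.p14, from RefSeq, with the E-box CACGTG, searched on both strands, in capitals.
BBC3: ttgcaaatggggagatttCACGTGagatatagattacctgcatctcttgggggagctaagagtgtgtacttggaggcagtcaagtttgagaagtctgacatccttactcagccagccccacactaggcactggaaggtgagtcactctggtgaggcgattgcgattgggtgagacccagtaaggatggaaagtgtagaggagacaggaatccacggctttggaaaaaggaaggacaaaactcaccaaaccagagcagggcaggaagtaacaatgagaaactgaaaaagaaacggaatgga
BAX: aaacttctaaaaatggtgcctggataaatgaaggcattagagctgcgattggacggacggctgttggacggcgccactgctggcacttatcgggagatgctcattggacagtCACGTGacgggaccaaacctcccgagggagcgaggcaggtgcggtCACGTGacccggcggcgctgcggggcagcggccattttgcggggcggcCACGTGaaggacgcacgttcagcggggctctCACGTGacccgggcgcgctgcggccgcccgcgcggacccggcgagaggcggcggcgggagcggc
BBC3 holds 1 E-box and BAX 4, where 7.26% of windows hold at least 1 and 0.0142% hold 4 or more. Of the 5 motifs searched, the E-box was marked here with its matches known. BAX also held 2 GC boxes (26.73% of windows hold 2 or more) and 2 CCAAT boxes (10.75%), and BBC3 1 CCAAT box (34.61%), all left unmarked. A link between the E-box and the falls was not tested. Of the other 3 genes called lower there, BCL2L1 and BAK1 had no E-box in their windows, and BID had 1 in each of 2 of its 5 windows. No member window held the GAS motif TTCNNNGAA, which 7.66% of all windows hold. MCL1 and BIK were not matched to a window.

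BBC3, a p53 target, was not called against DMSO: 6.17, 5.99 and 4.77 CPM with DMSO and 6.76, 5.46 and 5.71 CPM with ABBV-075 overlapped (0.07 ± 0.25, 95% interval -0.48 to 0.62). With IFNg alone it was at 4.91, 7.68 and 6.99 CPM, and 50 nM ABBV-744 with IFNg gave 2.89, 3.11 and 2.49 CPM, wholly lower, on 12, 11 and 9 reads. The log2 fold change was -1.17 ± 0.32 (edgeR adjusted p = 0.0029), called under every alternative tried. At 500 nM with IFNg the 4.66, 7.12 and 4.31 CPM overlapped IFNg alone (-0.28 ± 0.30, 95% interval -0.90 to 0.33). ABBV-075 with IFNg gave 6.46, 9.25 and 9.64 CPM, which overlapped IFNg alone (0.36 ± 0.27, edgeR adjusted p = 0.26).

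BAD, which survival kinases hold in the cytosol, was not called in any comparison. With ABBV-075 its 8.69, 8.04 and 6.31 CPM lay below the 9.11, 12.2 and 10.7 CPM of DMSO without overlap, a log2 difference of -0.50 ± 0.23 (edgeR adjusted p = 0.0999). Its 95% intervals against IFNg alone were -0.57 to 0.40 with ABBV-075, -0.70 to 0.30 with 50 nM ABBV-744 and -0.49 to 0.50 with 500 nM ABBV-744. BIK had 0 to 7 counts per library, and a difference was not detectable at this depth.

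The remaining log2 differences without a combined treatment, given here for completeness, did not pass. With ABBV-075 BAK1 differed by 0.01 ± 0.19. At 50 nM ABBV-744 the differences were 0.06 ± 0.12 (BAX), 0.28 ± 0.15 (BAK1), -0.26 ± 0.30 (BBC3), -0.21 ± 0.15 (BID) and 0.19 ± 0.23 (BAD). At 500 nM ABBV-744 they were 0.13 ± 0.10 (BCL2L1), -0.07 ± 0.12 (BAX), 0.33 ± 0.15 (BAK1), 0.09 ± 0.28 (BBC3), -0.22 ± 0.14 (BID) and 0.16 ± 0.22 (BAD). With IFNg they were 0.09 ± 0.08 (BCL2L1), 0.05 ± 0.09 (MCL1), 0.03 ± 0.21 (BCL2L11), 0.20 ± 0.10 (BAX), 0.20 ± 0.28 (BBC3), -0.04 ± 0.13 (BID) and -0.08 ± 0.21 (BAD). Between the doses of ABBV-744 without IFNg they were -0.13 ± 0.11 (BCL2L1), 0.20 ± 0.12 (MCL1), -0.13 ± 0.14 (BAX), 0.06 ± 0.17 (BAK1), 0.36 ± 0.30 (BBC3), -0.01 ± 0.17 (BID) and -0.03 ± 0.25 (BAD).

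PMAIP1 was too low for the filtered fits but was counted more often with IFNg. Across the 12 libraries without IFNg it had 0 to 6 counts, with a median of 2.5, and across the 12 with IFNg 5 to 11, with a median of 8. As CPM, the range was 0 to 1.34 without IFNg and 1.21 to 3.66 with it, so the ranges overlapped slightly. In IFNg against DMSO without a filter, the log2 fold change was 0.96 ± 0.58 and did not pass (edgeR adjusted p = 0.57). A fit of all 24 libraries without a filter, comparing the mean of the 4 groups with IFNg with the mean of the 4 without, was chosen after these counts were seen. It gave 1.76 ± 0.33 (edgeR adjusted p = 1.1e-06), where 31.3% of the genes tested were called. The same fit gave 0.33 ± 0.46 for BIK (edgeR adjusted p = 0.75) and -0.01 ± 0.08 for BAK1 (edgeR adjusted p = 0.9999). The GC content of the longest PMAIP1 transcript was 36.65%, and this fit was not corrected for GC content.

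The compounds were compared directly at 50 nM, in 2 pairings, ABBV-075 against ABBV-744 without and with IFNg, with p-values adjusted over all genes of each comparison. With 12 h worded for ABBV-075 and no time given for ABBV-744, compound and duration cannot be told apart here. Without IFNg, 4 of the 8 genes were called (background 40.8%, 21.4% higher and 19.4% lower). ABBV-075 gave higher MCL1 (0.76 ± 0.14, edgeR adjusted p = 0.0029) and higher BCL2L11 (0.62 ± 0.19, 0.026), lower BCL2L1 (-0.60 ± 0.12, 0.0039) and lower BID (-0.67 ± 0.19, 0.020). None of these 4 pairs of groups overlapped, without a share over all genes to set beside it. GC correction kept MCL1 (0.66), BCL2L11 (0.66) and BID (-0.49) and removed BCL2L1 (-0.22, edgeR adjusted p = 0.11). BCL2L11 lost its call without ABBV-075 replicate 2 (0.63, edgeR adjusted p = 0.070), ABBV-744 replicate 2 (0.52, 0.10) or ABBV-744 replicate 3 (0.66, 0.063). BID lost its call without ABBV-075 replicate 2 (-0.55, edgeR adjusted p = 0.098), ABBV-744 replicate 1 (-0.63, 0.065) or ABBV-744 replicate 2 (-0.57, 0.081). For the others the 95% intervals were -0.65 to 0.02 (BAX), -0.69 to 0.20 (BAK1), -0.23 to 0.94 (BBC3) and -1.27 to -0.06 (BAD). GC correction moved these differences from -0.31 to 0.05 for BAX, from -0.24 to 0.11 for BAK1, from 0.36 to 0.70 for BBC3 and from -0.66 to -0.30 for BAD, and none passed. BAX passed without ABBV-075 replicate 3 (-0.45, edgeR adjusted p = 0.019) and BAD without ABBV-744 replicate 3 (-0.87, 0.039).

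With IFNg, 5 genes were called between the compounds, all higher with ABBV-075 (background 33.7%, 16.7% higher and 17% lower). BBC3 differed most, by 1.60 ± 0.31 (edgeR adjusted p = 6.6e-05), with 6.46, 9.25 and 9.64 CPM against 2.89, 3.11 and 2.49 CPM. BCL2L11 differed by 0.93 ± 0.19 (edgeR adjusted p = 1.5e-04) and MCL1 by 0.35 ± 0.08 (0.0012), and these 3 kept their calls with GC correction (1.20, 0.98 and 0.42). BAX (0.35 ± 0.12, edgeR adjusted p = 0.016) and BAK1 (0.39 ± 0.16, 0.045) lost theirs with GC correction (0.15 and 0.20) and without any 1 of 4 libraries each, among them replicate 3 of the ABBV-075 and IFNg group (0.26 for BAX, edgeR adjusted p = 0.13; 0.29 for BAK1, 0.21). BCL2L1, BID and BAD had intervals of -0.06 to 0.37, -0.56 to 0.10 and -0.32 to 0.70. Between the doses of ABBV-744 with IFNg none of the 8 was called (background 1.7%), with differences of 0.95 ± 0.35 (BBC3), 0.52 ± 0.19 (BCL2L11), 0.27 ± 0.26 (BAD), 0.23 ± 0.11 (BAX), 0.16 ± 0.16 (BID), 0.13 ± 0.10 (BCL2L1), 0.05 ± 0.16 (BAK1) and 0.05 ± 0.08 (MCL1).

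An interaction, the effect with IFNg minus the effect in its absence, tested whether IFNg altered what an inhibitor did. For ABBV-075 none of the 8 genes was called (background 0.0347%), with intervals of -0.18 to 0.47 for MCL1, -0.69 to 0.51 for BCL2L11 and -0.36 to 0.53 for BID. The other 5 had -0.17 ± 0.15 (BCL2L1), -0.12 ± 0.19 (BAX), -0.31 ± 0.25 (BAK1), 0.27 ± 0.36 (BBC3) and 0.40 ± 0.33 (BAD). For 50 nM ABBV-744, 4 were called (background 51.6%, 25% higher and 26.5% lower): BCL2L1 -0.88 ± 0.14 (edgeR adjusted p = 7.0e-06), MCL1 0.60 ± 0.13 (5.2e-04), BAX -0.74 ± 0.15 (1.5e-04) and BAK1 -0.92 ± 0.21 (6.8e-04). For 500 nM, 3 were (background 33.5%, 18.5% higher and 15% lower): BCL2L1 -0.62 ± 0.13 (edgeR adjusted p = 5.5e-04), MCL1 0.43 ± 0.14 (0.020) and BAK1 -0.93 ± 0.22 (0.0013). With GC correction MCL1 kept its call at both doses (0.46 and 0.38), BAK1 at 500 nM only (-0.34 and -0.56), and BCL2L1 at neither (-0.30 and -0.24), while BAX at 50 nM went to -0.16 (edgeR adjusted p = 0.45). At 500 nM the MCL1 call was lost without DMSO replicate 3 (0.40, edgeR adjusted p = 0.062), without replicate 1 of the 500 nM and IFNg group (0.34, 0.079) and without IFNg replicate 3 (0.36, 0.070). Not called at 50 nM were -0.94 ± 0.42 (BBC3), -0.42 ± 0.35 (BAD), -0.36 ± 0.28 (BCL2L11) and -0.32 ± 0.20 (BID), and at 500 nM -0.43 ± 0.26 (BCL2L11), -0.40 ± 0.17 (BAX), -0.35 ± 0.40 (BBC3), -0.17 ± 0.21 (BID) and -0.14 ± 0.33 (BAD). BAX passed at 500 nM without ABBV-744 500 nM replicate 1 (-0.47, edgeR adjusted p = 0.029) and BBC3 at 50 nM without IFNg replicate 1 (-1.11, 0.033), while GC correction of the full sets gave -0.02 for BAX and -0.37 for BBC3. The GC content of the longest transcript was 44.7% for MCL1, 58.2% for BCL2L1, 58.8% for BAK1 and 58.9% for BAX.

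**Figure D4:**
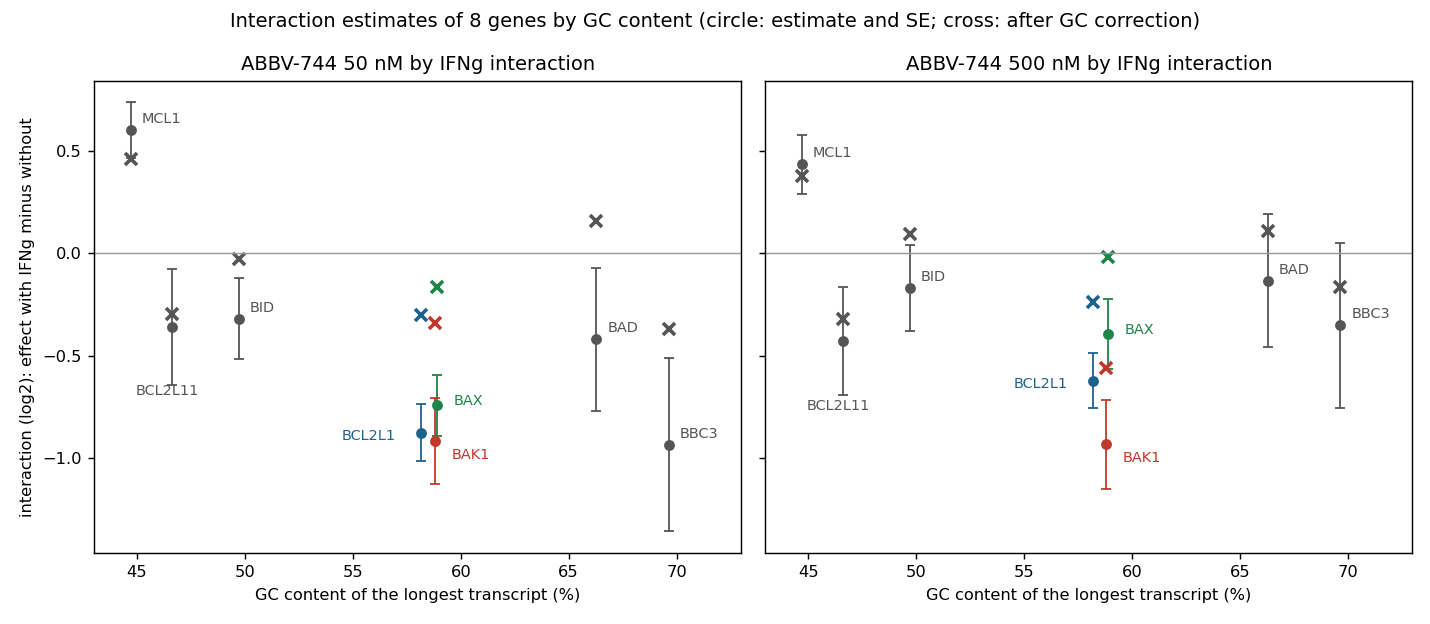
Interaction of ABBV-744 with IFNg (y axis, log2, circles with SE) against the percent of G and C in the longest transcript (x axis), at 50 nM on the left and 500 nM on the right, with crosses for the estimate after GC correction. MCL1, at 44.7% GC, lies above 0 before and after correction, and the crosses of BCL2L1, BAX and BAK1 lie nearer to 0 than their circles.

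The remaining family and pathway genes were read from lists, and their counts with ABBV-075 against DMSO are read against the 39.3% of all genes called in that comparison (19.8% higher, 19.6% lower). Fold changes ran with GC content in it (r = -0.28 across genes), and whether the calls of list genes survive GC correction is not given here. Of 13 other BCL2 family genes, 7 were tested with ABBV-075 against DMSO; 2 rose, 1 fell and the list median was 0.07 against 0.03 over all genes tested. BNIP3L, a mitophagy receptor, rose from 7.78 ± 0.38 to 28.6 ± 10.1 CPM, by 1.86 ± 0.26 (edgeR adjusted p = 2.5e-04). BCL2 itself had 0 to 9 counts per library and BCL2A1 0 to 5, while BCL2L10, HRK, BCL2L14 and BCL2L15 had 3 or fewer in all 24. Of 16 apoptosome, caspase and inhibitor-of-apoptosis genes tested, 4 rose and 2 fell (background 39.3%).

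Of 18 genes of the p53 list, to which BBC3, BAX and PMAIP1 are linked as known targets, 3 rose and 10 fell with ABBV-075 (background 19.8% higher and 19.6% lower), with a median of -0.40 against 0.03 over all genes. The list was chosen with earlier results of these data known, so the count only describes this comparison. The death receptor gene FAS fell (-1.21 ± 0.22, edgeR adjusted p = 0.0011), as did PHLDA3 (-1.19 ± 0.13, 4.5e-05) and EDA2R (-1.37 ± 0.18, 1.4e-04). TP53INP1 (1.57 ± 0.15, edgeR adjusted p = 1.8e-05) and the DNA repair gene XPC (1.10 ± 0.34, 0.021) rose. Of 7 MCL1 turnover genes tested, 2 rose and 1 fell (background 39.3%). In the integrated stress response and FOXO list, where 1 of 11 genes tested rose and 4 fell (background 39.3%), TRIB3, a pseudokinase, fell from 138 ± 11.4 to 40.0 ± 2.82 CPM, by -1.81 ± 0.13 (edgeR adjusted p = 1.6e-06). By pattern over the 8 group means, the genes most like MCL1 among 11676 were ATP8A1 (r = 0.99), RRM2B (r = 0.987) and NDFIP2 (r = 0.987). These correlations describe 8 means from the same libraries. They were not corrected for GC content, and its part in them was not tested.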

How the data were processed

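RNA of HepG2 cells was rRNA-depleted and sequenced as directional libraries on a HiSeq2500. Per the submitters' notes and the study's methods, the authors used CASAVA 1.8.2, trimmed reads with Trimmomatic 0.33 and aligned them to GRCh38 with STAR 2.7.1. The annotation used for counting was not given in the sources used here. The deposited files hold raw counts per gene symbol, not normalized, and column 4 (the gene's strand) was used. Reads on genes were 12% to 16.8% of all reads in the files, and multimapping reads 55.98% to 69.38%. The multimapping share was 61.01%, 55.98% and 59.26% with DMSO and 66.15%, 69.38% and 69.01% with 50 nM ABBV-744. With IFNg it was 58.27%, 62.42% and 66.38%, and with IFNg and 50 nM ABBV-744 59.55%, 59.09% and 57.55%. Its part in the results was not tested.

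Counts were tested with edgeR 4.0.16 in R 4.3.3 (filterByExpr, TMM, glmQLFit, glmQLFTest) on the groups compared, without covariates. The Benjamini-Hochberg adjustment ran over all genes tested, and a call is an adjusted p of at most 0.05. Log2 fold changes are given ± SE. There were 14 comparisons, 11 of pairs of groups and 3 interactions. CPM values are TMM-scaled, and a group at 3 counts or fewer in every library was at the floor. Alternatives were DESeq2 1.42.0, RLE, library size only, no filter, both strands, all 24 libraries, the replicate number as a block, a GC correction (per-library lowess on the GC content of the longest transcript, span 0.3) and each replicate left out. Of the symbols, 23161 matched GENCODE by symbol and 1381 by an older symbol. The edgeR fit was tested on simulated data for ABBV-075 against DMSO, where it called 91% of 89 genes changed by 1.3 and 100% of 106 changed by 2 on the log2 scale among 11212 tested, and 0.0817% of the unchanged ones. The simulated counts had the same dispersion for every gene and no GC trend, so these rates do not carry over to the real libraries. Changes smaller than 1.3, as for every member called in this comparison, were not simulated.

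Members and lists were chosen with earlier results of these data known. The 8 members past the filter are named in every comparison, and PMAIP1 and BIK by their counts. List genes are named at an adjusted p of at most 0.05 and a log2 fold change of 1 or more in size in ABBV-075, 500 nM ABBV-744 or IFNg against DMSO. Promoter windows are RefSeq's (GRCh38.p14), and 8 of the 10 members matched. Plots were drawn with matplotlib 3.10.9. Pairs of same-numbered replicates did not deviate together in all 3 numbers (correlation over 0.1) in any comparison, so the numbers were not treated as pairs.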

Additional observations from a re-analysis of the deposited data

Results flagged for a closer look

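Differences between groups in the effect of ABBV-744, tested as interactions with IFNg in edgeR, were past an adjusted p of 0.05 for BCL2L1 (-0.88), MCL1 (0.60), BAX (-0.74) and BAK1 (-0.92) at 50 nM, on the log2 scale. At 500 nM they were past it for BCL2L1 (-0.62), MCL1 (0.43) and BAK1 (-0.93). Positive values mean a higher effect with IFNg. Both doses share the DMSO and IFNg libraries. In these interactions fold changes ran with GC content across genes (r = -0.73 at 50 nM and r = -0.62 at 500 nM), and with GC correction the calls of MCL1 at both doses and of BAK1 at 500 nM remained. Groups of 3 libraries were too small for the test of single outlying samples.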

How the results depend on the processing

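Counts of called members and of called genes were recomputed under 8 other settings and with each replicate left out. With DESeq2, IFNg against DMSO called 0 members (274 genes) and ABBV-075 against ABBV-744 with IFNg 3 (2754 genes). Over all genes DESeq2 called 1216 and 1042 for 50 nM and 500 nM ABBV-744 against DMSO. It called 7 and 85 between the doses without and with IFNg, and 13 in the ABBV-075 interaction. GC correction called 3 members between the compounds with IFNg (3850 genes) and 1 in the 50 nM interaction (2336 genes). Over all genes it called 1196 (50 nM against DMSO), 16 and 99 (between doses, without and with IFNg) and 3842 (50 nM with IFNg). In the 3 interactions it called 27, 2336 and 1915. It turned BAX between the compounds at 50 nM from -0.31 to 0.0543. RLE, both strands, library size and no filter each called 1 member for 50 nM ABBV-744 against DMSO (2058, 1949, 1635 and 2362 genes). Library size alone called 0 members for IFNg (454 genes) and 3 between the compounds with IFNg (4002 genes). It moved the median of all genes by -0.10, -0.12 and 0.19 in 50 nM ABBV-744 against DMSO, the compounds with IFNg and the 50 nM interaction. All 24 libraries in 1 fit called 0 members for IFNg (265 genes) and 3 between the compounds with IFNg (3047 genes). Between doses this fit called 9 and 2 genes without and with IFNg. Without a filter 13 genes were called between doses and 45 in the ABBV-075 interaction.

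The replicate block called 1 member between the doses of ABBV-744 (BCL2L11) with 320 genes against 3. For IFNg against DMSO it called 0 members (BAK1 lost) and 290 genes. It also ended the call of BCL2L1 with ABBV-075 (edgeR adjusted p = 0.064). In the comparison of doses every library correlated best with its own number, which is a hint from the data only. Causes of these changes were not tested.

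With each replicate left out, called members ranged from 2 to 5 for ABBV-075 against DMSO (2950 to 5995 genes), 0 to 2 for 50 nM ABBV-744 (708 to 2671), 1 to 1 for 500 nM (793 to 2003), 2 to 5 between the compounds (2651 to 5722), 0 to 1 for IFNg (270 to 549) and 3 to 6 between the compounds with IFNg (2918 to 4251). Between doses they ranged from 0 to 0 (0 to 10 genes without IFNg, 64 to 473 with it). In the ABBV-075 interaction they ranged from 0 to 0 (3 to 200 genes). In the 500 nM interaction they ranged from 2 to 4 (3002 to 3924 genes) and in the 50 nM one from 4 to 5 (5251 to 5982). Against IFNg alone, ABBV-075 with IFNg called 4 to 6 members (5774 to 6023 genes). There, 50 nM ABBV-744 called 6 to 6 (5119 to 5823) and 500 nM 4 to 5 (4109 to 4926).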
